A study of Arabidopsis thaliana with 16 samples.

Results

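The comparison described here is that of IXB with methanol in dark-grown suspension cells of Arabidopsis thaliana, ecotype Landsberg erecta. Its members are the 8 columns that the labels assign to the IXB set, 4 of IXB and 4 of methanol, out of 16 columns in the series. IXB was given at 100 nM in methanol, and the control cultures received 20 µL of methanol alone, the volume added to every culture. Both groups were in MS medium with the synthetic auxin 2,4-D, received the agent on day 3 following sub-culture and were frozen 6 h later. Each replicate pooled 2 flasks of 100 mL and was read on 1 Affymetrix ATH1 array. The labels do not say whether the parent cultures of the replicates were separate, and the p-values thus rest on the spread among these samples alone, and that may be technical in part. The 4 methanol scans also serve as controls of another set of the series that was normalised apart and was not used here. A cell suspension is a model with no organs or tissue layers, and in RNA from bulk cells fewer cells of a kind and less RNA per cell cannot be told apart.

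IXB is the usual short name of isoxaben, a herbicide that blocks cellulose synthesis and makes cellulose synthase complexes leave the plasma membrane; the labels give only the abbreviation. Cellulose microfibrils are tied together by xyloglucan and embedded in pectin, and enzymes in the wall cut, join and de-esterify these polymers as cells grow. Plant cells sense damage to this network through receptor kinases such as THESEUS1, calcium signals and wall fragments, and are known to answer with wall remodelling, lignin, defence genes and slower division.

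Values are log2 intensities per probe set, the group of probes on the array for 1 transcript. Column medians lay between 5.20 and 5.30, and 51.9% to 52.6% of probe sets reached a log2 of 5 or more. Each array correlated with the other arrays of its group at a mean r of 0.995 to 0.997 and with those of the other group at 0.993 to 0.995, across probe sets. The deposited values had been brought to a common distribution, so a change of total RNA per cell is not visible in them. Of the cell type markers looked for, 7 were measured by a probe set of their own. AUR1 and AUR2, Aurora kinases of dividing cells, had methanol means of 8.96 and 6.95. The root hair expansins EXPA7 (3.25) and EXPA18 (3.55) and the stomatal lineage factors FMA (3.15) and SPCH (2.99) were all dim, under 5 log2. RCA, the activase of Rubisco, was at 9.61 in these dark-grown cells. None of the 7 passed the test, with log2 differences between -0.175 and 0.15.

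The core response to low oxygen is a set of genes that plant cells switch on when respiration is short of oxygen. Array IXB replicate 1 had the lowest mean of all 8 arrays over such genes. That mean is not among the results flagged for a closer look below. The mean over 19 such genes, relative to the methanol mean, was -0.53 log2 on IXB replicate 1 and 0.36, 0.81 and 0.79 on IXB replicates 2, 3 and 4. On the methanol arrays it was 0.00, -0.42, 0.12 and 0.30, so the groups overlapped and the spread within IXB was wider than the difference of 0.36 between the groups. Of the 19 genes, 1 rose and the others did not pass. It was AT5G42200, at 4.52, 4.63, 4.47 and 4.75 with methanol and at 4.98, 4.98, 5.61 and 5.43 with IXB, a change of 0.66 (SE 0.14, limma adjusted p = 0.0229). That call ended when methanol replicate 1 or 2 or IXB replicate 4 was omitted (adjusted p up to 0.0701). CML38, a calmodulin-like protein of this response, was at 6.32, 6.03, 6.47 and 7.40 with methanol and at 6.53, 7.55, 7.83 and 8.11 with IXB, and did not pass (limma adjusted p = 0.156). AT5G10040 ran from 4.29 to 5.67 with methanol and was at 3.40, 5.85, 7.15 and 7.12 with IXB, so that IXB replicate 1 was the lowest of all 8 arrays. The count of risers among the 19 genes was 5 without IXB replicate 1, 0 without methanol replicate 1 or 2 or IXB replicate 4, and 3 with same-numbered arrays paired. The part of this spread in the results that follow was not tested. Without IXB replicate 1 the whole comparison gave 343 probe sets higher and 63 lower.

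**Figure D1:**
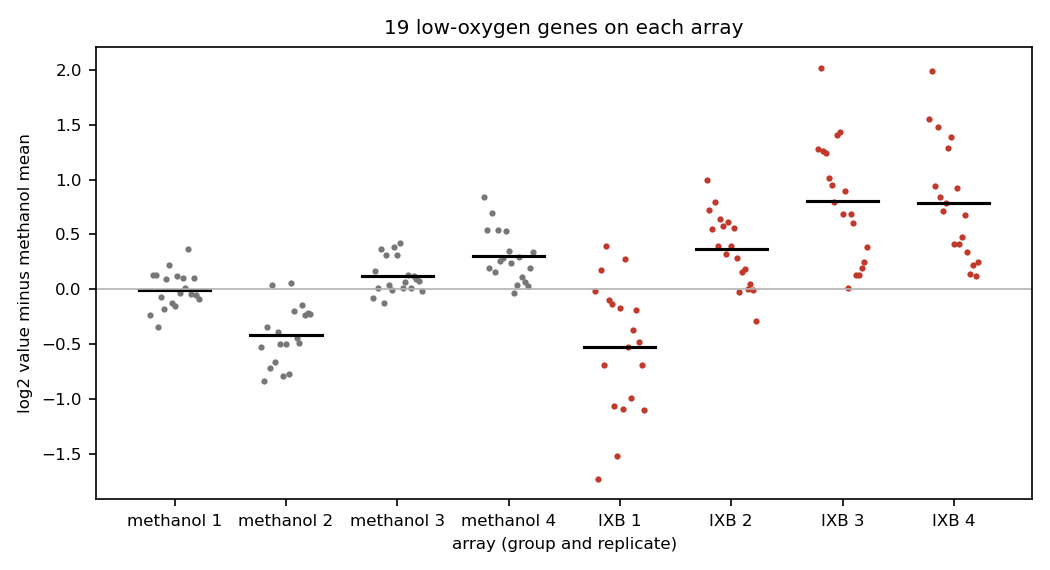
Log2 value minus the mean of the 4 methanol arrays (y axis) for 19 low-oxygen genes on each of the 8 arrays (x axis); points are genes and black bars are the mean over genes. The means run from -0.42 to 0.30 on methanol arrays and from -0.53 on IXB replicate 1 to 0.81 on IXB replicate 3.

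The question of the comparison was which functions rise and which fall after 6 h with IXB. Over 22746 probe sets, limma called 3.01% at a Benjamini-Hochberg adjusted p under 0.05, with 501 higher (2.20%) and 184 lower (0.809%). Increases reached further than decreases. Of the calls, 290 increases and 16 decreases measured 0.5 log2 or more. The share called higher depended on the level in methanol. It was 0.771% of 9080 probe sets under 4 log2, 3.75% of those from 4 to 6, 3.16% of those from 6 to 8, 2.66% of those from 8 to 10 and 2.01% of the 845 brightest, at 10 or more. Lower calls made up 0.0991%, 1.35%, 1.44%, 1.18% and 0.237% of the same classes. Of the called probe sets, 250 higher and 92 lower ones belong to exactly 1 gene that could be named. The other 251 and 92 are of several genes or unnamed here, so roughly as many calls could not be named as could. Of the called probe sets, most are not described below, where at most 125 genes past the threshold are named. When each of 13333 genes is represented by its brightest probe set, 1.87% were higher and 0.690% lower, and the median change was -0.01 log2. Counts within gene families are to be read against these shares. As the families were listed with values already seen, every such contrast is a description only.

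**Figure D2:**
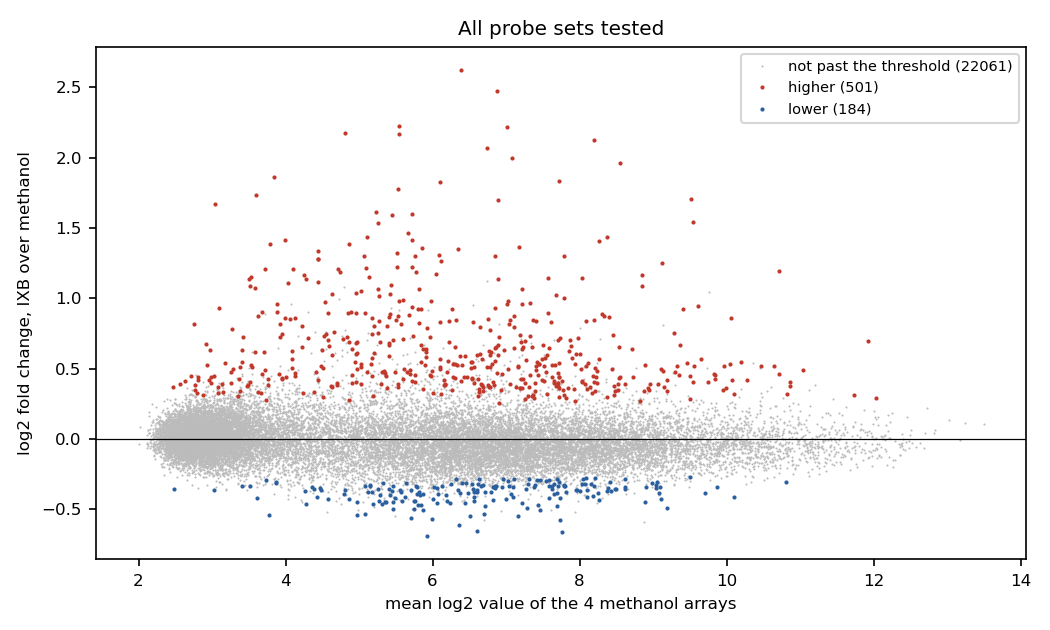
Log2 fold change of IXB over methanol (y axis) against the mean log2 value of the 4 methanol arrays (x axis) for 22746 probe sets, with the 501 higher in red and the 184 lower in blue. Called increases extend to over 2 log2, and all called decreases are smaller than 1 log2.

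Enzymes and proteins that loosen or re-join the wall included the largest called rise of a named gene, that of XTH18. Of 10 measured xyloglucan endotransglucosylase/hydrolases (XTH), which cut and re-join xyloglucan chains, 3 rose, 0 fell and 7 did not pass, with a family median of 0.18. XTH18 was at 6.66, 7.00, 6.93 and 6.94 on the methanol arrays and at 9.54, 9.31, 9.43 and 9.12 on the IXB arrays. XTH19, its neighbour on the chromosome, was at 8.74, 9.21, 9.25 and 9.30 with methanol and at 10.43, 10.27, 10.52 and 10.28 with IXB. Both genes were higher on every IXB array than on any methanol array. The rise was 5.54-fold for XTH18 (log2 2.47, SE 0.10, limma adjusted p = 1.86e-07) and 2.38-fold for XTH19 (log2 1.25, SE 0.12, limma adjusted p = 9.19e-05). XTH16 was dim in both groups, from 2.88 to 3.18 with methanol and from 3.40 to 3.79 with IXB, and rose by 0.63. The bright members XTH20, at 9.2 with methanol, and EXGT-A3, at 10.8, did not pass and had changes of 0.16 and 0.20, so the family did not move as a block.

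Expansins slide wall polymers past each other without cutting them, and expansin-like A proteins are related to them. All 3 expansin-like A genes rose, while the other 2 expansin-like genes did not pass. EXLA1, already among the bright transcripts, went from 10.56, 10.74, 10.65 and 10.88 with methanol to 11.90, 11.94, 11.93 and 11.82 with IXB. EXLA3 went from 8.13, 8.45, 8.06 and 8.40 to 9.74, 9.64, 9.64 and 9.65. EXLA2 went from 8.26, 8.61, 8.28 and 8.32 to 10.09, 9.83, 9.64 and 9.64. The groups were far apart for each of the 3 genes, and the rises were 2.28-fold, 2.65-fold and 2.70-fold, with SE of 0.08, 0.09 and 0.11 on the log2 scale and limma adjusted p = 6.55e-06, 6.10e-06 and 1.94e-05. Of 14 alpha and beta expansins only EXPA15 rose, by 0.47, and 13 did not pass. That call ended when methanol replicate 4 or IXB replicate 1, 2 or 4 was omitted (adjusted p up to 0.0732).

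**Figure D3:**
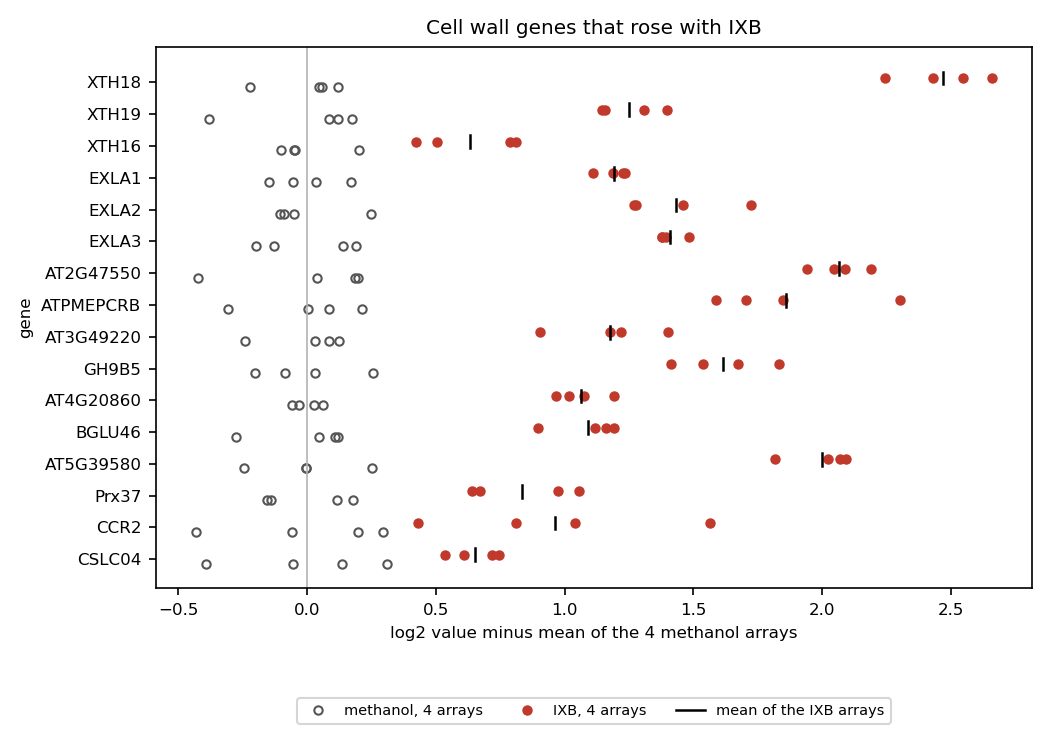
Log2 value minus the mean of the 4 methanol arrays (x axis) for 16 wall genes that rose (y axis), with methanol arrays as open grey points, IXB arrays as red points and the mean of the IXB arrays as a black bar. Red and grey points do not overlap for any of the 16 genes, and XTH18 is farthest to the right at a mean of 2.47. Those among the 30 largest increases were named only if their groups did not overlap. The share of all probe sets without overlap is not given here.

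Pectin was represented by its methylesterases, which remove methyl groups from homogalacturonan and so change its stiffness, and by putative methyltransferases of the QUA2 type. Among 44 methylesterases there were 3 risers and 0 fallers, 41 did not pass, and the median was 0.07. AT2G47550 was at 6.32, 6.93, 6.78 and 6.94 with methanol and at 8.79, 8.93, 8.83 and 8.68 with IXB. ATPMEPCRB was at 3.54, 4.06, 3.93 and 3.85 with methanol and at 5.55, 5.43, 6.14 and 5.69 with IXB. These rises were 4.19-fold (SE 0.13 log2, limma adjusted p = 2.87e-06) and 3.63-fold (SE 0.15 log2, limma adjusted p = 2.13e-05), and the third, AT3G49220, was 2.26-fold. Most of the family was dim, with 38 of 44 members under 5 log2, and with same-numbered arrays paired 5 members rose. Of 24 QUA2-type genes 4 rose and 20 did not pass, and 7 rose with an intensity trend. They were small rises of bright transcripts: AT1G04430 by 0.55 from 10.19, AT2G34300 by 0.52 from 9.97, AT3G23300 by 0.44 and AT4G14360 by 0.37. The call of AT4G14360 was lost in the paired fit (adjusted p = 0.0508) and without any array but methanol replicate 3 or IXB replicate 3 (adjusted p up to 0.117).

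Among genes for glucan backbones, 3 of 8 cellulose synthase-like genes rose and 5 did not pass. CSLC04 and CSLC12 encode glucan synthases of the xyloglucan backbone, and CSLA03 belongs to the mannan synthase family. CSLC04 was at 6.45, 6.62, 5.92 and 6.26 with methanol and at 7.06, 7.03, 6.85 and 6.92 with IXB. CSLC12 was at 6.48, 6.66, 6.32 and 6.71 with methanol and at 6.97, 6.86, 7.07 and 6.97 with IXB. The groups did not overlap, but gaps were narrow, and the changes were 0.65 (SE 0.13), 0.43 (SE 0.09) and, for CSLA03, 0.69 (SE 0.16), with limma adjusted p = 0.0183, 0.0303 and 0.0423. CSLC6, of the same subfamily, had a change of -0.21 and did not pass. Leaving out 1 array ended the call of CSLA03 for any array but methanol replicate 1, of CSLC12 for methanol replicate 1 or any IXB replicate, and of CSLC04 for methanol replicate 4 or IXB replicate 1 or 2 (adjusted p up to 0.121). The count of 3 became 0 without IXB replicate 1 or 2.

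The catalytic subunits of cellulose synthase are not analysed here. Of 5 measured partners of the complex, AT1G45688 rose and 4 did not pass. AT1G45688 encodes CC1, a companion protein that links the complex to microtubules under stress. It was at 8.51, 8.54, 8.61 and 8.52 with methanol and at 8.98, 9.05, 8.95 and 8.92 with IXB, a change of 0.43 (SE 0.07, limma adjusted p = 0.00364). Spread within both groups was small beside this change. COB, a membrane-anchored protein needed for oriented cellulose deposition, had a change of 0.19 and did not pass.

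Glycosyl hydrolases of family 9 include endoglucanases that trim glucans, and 2 of 15 rose. GH9B5 was at 5.14, 5.48, 5.25 and 5.02 with methanol and at 7.06, 6.76, 6.90 and 6.64 with IXB, which is 3.06-fold (SE 0.11 log2, limma adjusted p = 7.22e-06). GH9B7 rose by 0.44 from a methanol mean of 8.22. GH9B5 was apart from methanol on all 4 IXB arrays by more than 1 log2 unit. Of 22 berberine bridge enzyme-like oxidases 2 rose, and 20 did not pass. AT4G20860 encodes an oxidase of cellodextrins, short cellulose fragments, and AT4G20830 an oxidase of oligogalacturonides, which are pectin fragments. AT4G20860 was at 5.23, 5.32, 5.29 and 5.20 with methanol and at 6.45, 6.23, 6.34 and 6.28 with IXB, a 2.09-fold rise (SE 0.07 log2, limma adjusted p = 6.84e-06). AT4G20830 was at 9.61, 9.38, 8.91 and 9.26 with methanol and at 10.13, 10.07, 10.02 and 9.95 with IXB, a 1.68-fold rise (SE 0.12 log2, limma adjusted p = 0.00628). Of the family, 20 members were under 5 log2.

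Genes of lignin synthesis and oxidative cross-linking were measured unevenly. Of 53 genes written for the phenylpropanoid list only 4 had a probe set of their own, and 2 of these rose. CCR2, a cinnamoyl-CoA reductase of the monolignol path, was at 4.09, 4.19, 3.46 and 3.83 with methanol and at 5.46, 4.93, 4.70 and 4.32 with IXB. HCT, a hydroxycinnamoyl transferase of the same path, was at 8.06, 8.05, 7.54 and 7.80 with methanol and at 8.74, 8.38, 8.54 and 8.29 with IXB. The changes were 0.96 (SE 0.21) and 0.62 (SE 0.13), with limma adjusted p = 0.0320 and 0.0224. CCR2 lost the call without any array but methanol replicate 2 or IXB replicate 4, and HCT lost it without methanol replicate 4 or IXB replicate 1 or 3 (adjusted p up to 0.0931). BGLU46, a glucosidase that can release monolignols, was at 5.15, 5.55, 5.48 and 5.54 with methanol and at 6.59, 6.62, 6.55 and 6.33 with IXB. It rose 2.13-fold (SE 0.10 log2, limma adjusted p = 8.39e-05) and was the sole call among 22 family 1 beta-glucosidases, of which 3 passed with paired arrays.

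Class III peroxidases, secreted enzymes that cross-link wall polymers and produce or use hydrogen peroxide, held 3 risers among 55, with 52 not past the test and a median of 0.03. AT5G39580 was at 6.84, 7.34, 7.08 and 7.08 with methanol and at 9.18, 9.16, 9.11 and 8.90 with IXB. AT5G06730 was at 5.58, 5.42, 4.67 and 4.88 with methanol and at 6.78, 6.26, 6.29 and 5.83 with IXB. The gap between groups was wide for the first gene and narrow for the second. Their rises were 4.00-fold (SE 0.10 log2, limma adjusted p = 7.39e-07) and 2.22-fold (SE 0.21 log2, limma adjusted p = 0.0140), and Prx37 rose 1.78-fold.

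**Figure D4:**
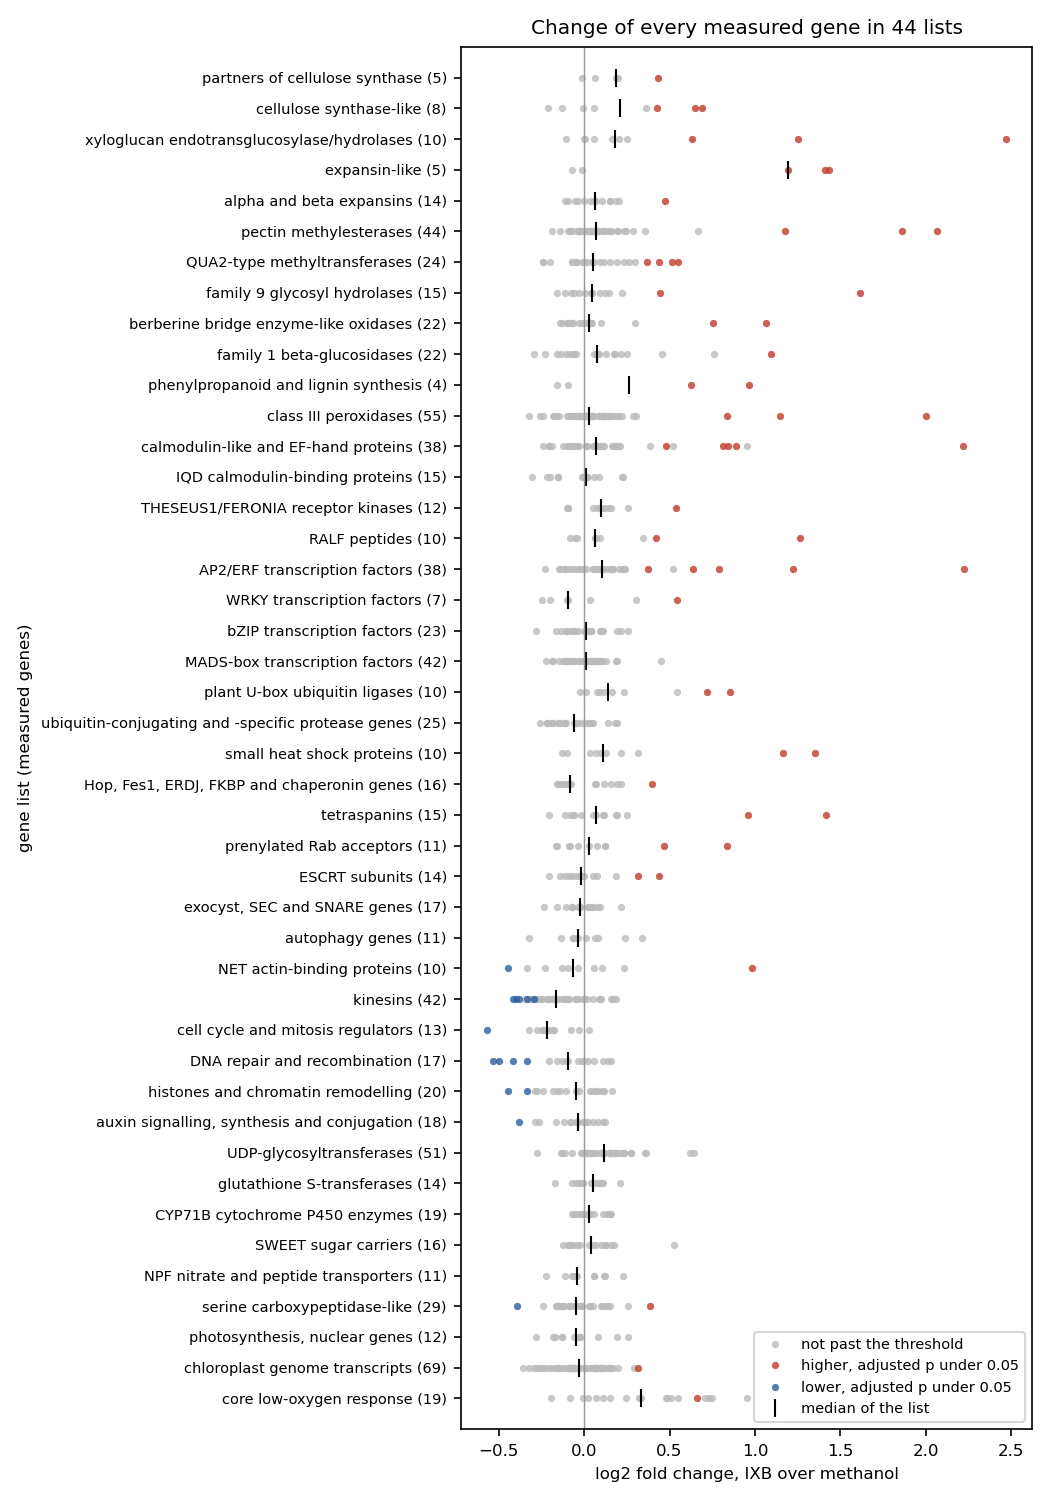
Log2 fold change of IXB over methanol (x axis) for every measured gene of 44 lists (y axis, number of genes in brackets), with genes called higher in red, genes called lower in blue, others in grey and the list median as a black tick. Red points extend to the right in the wall, calcium and AP2/ERF lists, and blue points gather in the kinesin and DNA repair lists.

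Of the receptor kinases of the THESEUS1 and FERONIA family, which monitor the wall, THE1 rose and 11 of 12 did not pass. THE1 was at 7.71, 8.12, 8.03 and 7.88 with methanol and at 8.46, 8.63, 8.20 and 8.60 with IXB, so the lowest IXB array lay just above the highest methanol array. Its change was 0.53 (SE 0.11, limma adjusted p = 0.0255), and its call ended without methanol replicate 1 or 4 or IXB replicate 1, 2 or 4 (adjusted p up to 0.0866). FER, the brightest of the family at 10.0 with methanol, had a change of 0.26 and did not pass. RALF peptides are secreted signals, some of which are ligands of this family, and 2 of 10 rose. RALFL28 was at 6.01, 6.34, 5.99 and 6.10 with methanol and at 7.44, 7.49, 7.44 and 7.12 with IXB, a 2.40-fold rise (SE 0.10 log2, limma adjusted p = 2.36e-05). RALFL33, bright at 10.1 with methanol, rose by 0.42 and lost the call without methanol replicate 4 or IXB replicate 1 or 3 (adjusted p up to 0.0701). RALFL34, described as a ligand of THESEUS1, had a change of -0.08 and did not pass.

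Among calcium-binding proteins 1 gene, AT4G27280, was in the 30 largest increases. Of 38 calmodulin-like and EF-hand genes 5 rose (13.2%, beside 1.87% of all genes), 0 fell, 33 did not pass, and the median was 0.07. With a list rewritten after values had been seen, this contrast is a description only. AT4G27280, a small EF-hand protein, was at 6.70, 7.04, 6.80 and 7.54 with methanol and at 9.59, 9.08, 9.25 and 9.01 with IXB. This was a 4.65-fold rise (SE 0.17 log2, limma adjusted p = 1.66e-05), with all IXB arrays more than 1 log2 unit above all methanol arrays. AT2G46600 rose from 8.08, 8.21, 8.43 and 8.49 with methanol to 9.18, 9.05, 9.45 and 9.09 with IXB. AT3G25600 rose from 7.14, 7.54, 7.35 and 7.44 to 8.32, 8.16, 8.20 and 8.17. These were 1.85-fold and 1.80-fold rises. AT5G39670 was dim, at 2.58 to 2.94 with methanol, and rose by 0.82. AT2G41410, named after its value was seen, rose by 0.48 from 9.14. None of the 5 lost its call when any 1 array was left out. Of 15 IQD proteins, which bind calmodulin, 0 passed, and at an unadjusted p under 0.05 limma had 1 higher and 4 lower.

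Among transcription factors the AP2/ERF family held 5 risers. They were 13.2% of its 38 members, beside 1.87% of all genes, with 0 fallers, 33 not past the test and a median of 0.10. Here too the list was rewritten after values had been seen, and the contrast is a description only. AT1G33760, of the DREB type, was at 5.07, 5.75, 5.40 and 5.94 with methanol and at 7.91, 7.69, 7.89 and 7.57 with IXB. AT1G77640, also of the DREB type, was at 5.07, 5.67, 5.37 and 5.95 with methanol and at 6.71, 6.73, 7.05 and 6.45 with IXB. Methanol replicates 2 and 4 were the higher control arrays for both genes, and neither reached an IXB array. The rises were 4.67-fold (SE 0.16 log2, limma adjusted p = 9.61e-06) and 2.33-fold (SE 0.17 log2, limma adjusted p = 0.00209). AT1G44830 rose by 0.79 and the dim AT4G32800 and AT4G28140 by 0.63 and 0.37. AT4G28140 lost its call with median centring, with an intensity trend and without any array but methanol replicate 3 or IXB replicate 2 (adjusted p up to 0.107). Without dim probe sets 3 members were called.

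The other transcription factor families gave few calls. WRKY53, a regulator of senescence and defence, was dim at 3.20, 3.28, 3.02 and 3.21 with methanol and at 3.78, 3.53, 3.86 and 3.71 with IXB, and rose by 0.54 (SE 0.09, limma adjusted p = 0.00553). The other 6 WRKY genes measured, of 72 in the gene table, did not pass. Of 23 bZIP factors 0 passed (at an unadjusted p under 0.05 limma had 3 higher and 1 lower), with FD farthest from methanol at -0.28. Of 42 genes listed as MADS-box factors 0 passed (1 higher and 2 lower unadjusted), and 1 was higher in the paired fit. AT1G30260, named here by its locus alone, had the largest difference, 0.45 (limma adjusted p = 0.0877, and 0.0436 with paired arrays). Membership of this list was not checked by protein similarity. Most of the listed genes, 36, were dim in these cells.

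Protein turnover and folding gave few calls. Of 10 plant U-box ubiquitin ligases 2 rose (20%, beside 1.87% of all genes) and 8 did not pass. Of the 10 differences 9 were above 0, and the median was 0.14, against -0.01 over all genes. PUB23, a negative regulator of immune responses, was at 6.55, 6.82, 6.82 and 6.85 with methanol and at 7.67, 7.55, 7.65 and 7.58 with IXB, a 1.81-fold rise (SE 0.08 log2, limma adjusted p = 9.52e-05). AT1G23030, of the same class, rose by 0.72. RING1, a RING-type ubiquitin ligase at the plasma membrane, was at 4.74, 5.09, 5.13 and 4.51 with methanol and at 6.24, 6.25, 6.33 and 6.17 with IXB. It rose 2.61-fold (SE 0.12 log2, limma adjusted p = 5.55e-05), and its 4 IXB arrays lay closer together than its methanol arrays. Of 25 ubiquitin-conjugating and ubiquitin-specific protease genes 0 passed (before adjustment, limma had 1 higher and 4 lower at p under 0.05), with UBC18 farthest at -0.26.

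Of 10 small heat shock proteins, chaperones that hold unfolding proteins, 2 rose. AT2G29500 was at 6.44, 6.23, 6.13 and 6.58 with methanol and at 8.11, 7.44, 7.97 and 7.26 with IXB, a 2.55-fold rise (SE 0.17 log2, limma adjusted p = 0.00107). AT1G53540 was at 4.38, 4.06, 4.06 and 4.49 with methanol and at 5.74, 5.11, 5.76 and 5.03 with IXB, a 2.24-fold rise (SE 0.17 log2, limma adjusted p = 0.00292). In both genes IXB replicates 1 and 3 were above IXB replicates 2 and 4. The family mean did not separate the groups: it was 0.41 above the methanol mean on methanol replicate 4 and between 0.10 and 0.61 above it on the IXB arrays. Of 16 genes for Hop, Fes1, ERDJ, FKBP and chaperonin proteins only AT5G48570 passed, with a change of 0.39. Its call was lost without any 1 of the 8 arrays (adjusted p up to 0.137), with array weights and with median centring.

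Of 15 tetraspanins, which organise membrane domains and mark extracellular vesicles, TET8 and TET9 rose and 13 did not pass. TET9 was at 5.61, 5.82, 5.67 and 5.78 with methanol and at 7.23, 6.96, 7.35 and 7.00 with IXB, a 2.66-fold rise (SE 0.10 log2, limma adjusted p = 6.84e-06). TET8 was at 7.25, 7.18, 7.23 and 7.20 with methanol and at 8.32, 7.90, 8.34 and 8.16 with IXB, a 1.95-fold rise (SE 0.09 log2, limma adjusted p = 0.000131). In both, methanol arrays were tight, and IXB replicates 1 and 3 were the higher IXB arrays. Of 11 prenylated Rab acceptors, proteins of the ER and Golgi that act in vesicle traffic, PRA1.B4 rose 1.78-fold and PRA1.B6 1.38-fold. PRA1.B4 was at 7.69, 7.70, 7.55 and 7.50 with methanol and at 8.39, 8.36, 8.59 and 8.44 with IXB (limma adjusted p = 9.52e-05). PRA1.B6 lost the call without any array but methanol replicate 1 (adjusted p up to 0.102).

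Of 14 subunits of ESCRT, the machinery that sorts membrane proteins into multivesicular bodies, VPS2.1 rose by 0.44 and ELC by 0.32, and 12 did not pass. In the paired fit ELC lost the call (adjusted p = 0.0511), and it lost it too without methanol replicate 1 or 4 or IXB replicate 1, 2 or 4, while VPS2.1 lost it without methanol replicate 1 (adjusted p up to 0.0804). Of 17 exocyst, SEC and SNARE genes and 11 autophagy genes 0 passed with limma. At an unadjusted p under 0.05, 1 of the first was higher and 1 lower, and of the second 0 were higher and 1 lower. The farthest from methanol were AT3G63460 at -0.23 and ATG8E at 0.34, and the lowest autophagy gene was at -0.32. With an intensity trend, with array weights or without dim probe sets, 1 autophagy gene was called lower. NET proteins bind actin to membranes, and of 10 members 1 rose and 1 fell. NET4B, of the vacuole membrane, was at 5.54, 5.85, 5.71 and 5.27 with methanol and at 6.57, 6.54, 6.58 and 6.61 with IXB, a 1.98-fold rise (SE 0.11 log2, limma adjusted p = 0.000276). NET3C, found where the ER meets the plasma membrane, was at 5.03, 5.07, 4.87 and 4.91 with methanol and at 4.48, 4.44, 4.62 and 4.54 with IXB, and fell by 0.45 (SE 0.07, limma adjusted p = 0.00678). These members of a family went opposite ways. The groups did not overlap in either, but for NET3C this was a condition of being named among the 25 largest decreases.

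The remaining genes among the 30 largest increases belong to no list. AT2G32190, a small cysteine-rich membrane protein, was at 2.86, 2.98, 3.02 and 3.32 with methanol and at 4.82, 4.75, 5.03 and 4.25 with IXB, a 3.18-fold rise from a dim level. AT1G05340, of the same kind, rose 2.33-fold, and AT2G32030, a GNAT-type acetyltransferase, 2.61-fold. AT2G27500, a beta-1,3-glucanase of family 17, was at 5.23, 5.01, 5.07 and 5.07 with methanol and at 6.65, 6.28, 6.20 and 6.12 with IXB, a 2.32-fold rise (limma adjusted p = 5.70e-05). AT2G39110, a protein kinase, rose 2.43-fold, AT1G66180, an aspartyl protease, 2.31-fold and AT4G22470, a lipid transfer-like protein, 2.22-fold. AT4G02170, AT4G27652, AT2G30930 and AT5G38700, for which no role is given here, rose 3.03-fold, 2.50-fold, 2.46-fold and 2.31-fold. All of these had no overlap between the groups, as the rule for naming them required.

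Some further risers are named after their values were seen, and members of their families that did not pass were not counted. The aspartyl proteases AT1G44130, AT5G37540, AT5G19110, NANA and AT1G49050 rose by 1.14, 0.81, 0.44, 0.41 and 0.41 log2. AT5G25930, a leucine-rich repeat receptor kinase, was at 4.73, 5.03, 4.13 and 4.61 with methanol and at 5.86, 5.96, 5.28 and 5.53 with IXB, a 2.04-fold rise, whereas AT1G68400 and AT4G36180, of the same broad class, fell by 0.47 and 0.32. AT5G47070, a receptor-like cytoplasmic kinase, rose by 0.73 and AT2G34930, a leucine-rich repeat protein, by 0.86. AT1G69840, a hypersensitive-induced response protein of membrane microdomains, was at 9.35, 9.40, 9.50 and 9.37 with methanol and at 10.40, 10.39, 10.26 and 10.26 with IXB, a 1.90-fold rise (SE 0.07 log2, limma adjusted p = 1.56e-05). AT5G64870, a flotillin, rose by 0.54, and AT2G22880, a VQ-motif protein, by 0.92. The thaumatin-like genes OSM34 and AT4G36010 rose by 0.64 and 0.59, the transporter AT1G61890 of the MATE family by 0.83, and AT2G41640, a family 61 glycosyltransferase, by 0.87. IRX15-L, needed for normal xylan, rose by 0.62. HMT-1, a homocysteine methyltransferase, rose by 0.96, and AT5G15950, a decarboxylase of S-adenosylmethionine in polyamine synthesis, by 0.60. NANA and AT5G64870 lost the call without methanol replicate 1, 2 or 4 or IXB replicate 1, 2 or 3, IRX15-L without methanol replicate 4 or IXB replicate 1 or 2, and AT2G22880 without methanol replicate 1 (adjusted p up to 0.117).

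Kinesins, the motor proteins that move along microtubules and many of which build the spindle and the phragmoplast, gave 5 decreases. They were 11.9% of the 42 measured, beside 0.690% of all genes, with 0 risers and 37 not past the test. The median level of the list was 5.70, and of all probe sets from 4 to 6 log2 with methanol 1.35% were lower. As the lists were rewritten after values had been seen, this contrast is a description only. The median change was -0.17 and 33 of the 42 differences were below 0. At an unadjusted p under 0.05 limma had 17 lower and 2 higher. For these counts of signs and of unadjusted p no share over all genes is given here, and the median over all genes was -0.01. AT4G14330, a kinesin of the phragmoplast, was at 6.74, 6.52, 6.52 and 6.50 with methanol and at 6.04, 6.21, 6.13 and 6.25 with IXB. AT5G60930, of the chromokinesin subfamily, was at 7.05, 7.07, 6.96 and 7.06 with methanol and at 6.65, 6.70, 6.70 and 6.75 with IXB. AT2G22610 was at 6.39, 6.40, 6.25 and 6.46 with methanol and at 5.83, 6.03, 6.03 and 6.09 with IXB. These decreases were small and had no overlap between groups. Their log2 changes were -0.41 (SE 0.08), -0.34 (SE 0.06) and -0.38 (SE 0.08), with limma adjusted p = 0.0162, 0.0162 and 0.0237. AT3G51150 fell by 0.40 and AT5G23910, named after its value was seen, by 0.29.

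The count of kinesins called lower depended on the arrays. It was 5 without methanol replicate 3 and 0 without IXB replicate 1, it was 7 without dim probe sets, and the median stayed between -0.23 and -0.12 under every alternative run on it. Without IXB replicate 1 each of the 5 lost its call. Other single arrays did so for AT5G60930 (methanol replicate 1 or 4 or IXB replicate 2), AT2G22610 (methanol replicate 1, 2 or 4 or IXB replicate 2), AT3G51150 and AT5G23910 (any but methanol replicate 3), with adjusted p up to 0.116. AT3G51150 also lost it with an intensity trend (adjusted p = 0.0570), and AT5G23910 with median centring and in the paired fit (adjusted p up to 0.0590). In the opposite direction, ATMAP65-6, a microtubule-associated protein named after its value was seen, rose by 0.40. Its call was lost with median centring (adjusted p = 0.0707) and without any array but methanol replicate 3 (adjusted p up to 0.109).

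Regulators of the cell cycle and of mitosis were nearly all below 0. Of 13 measured, 12 had a lower mean with IXB, the median was -0.21, and limma had 9 lower at p under 0.05 before adjustment, but only SIM passed. The median over all genes was -0.01. Shares of all genes below 0, or lower at that unadjusted p, are not given here. The mean over the 13 genes, relative to methanol, was 0.00, 0.01, 0.01 and -0.02 on the methanol arrays and -0.26, -0.20, -0.18 and -0.20 on the IXB arrays. By this mean the arrays of each group lay close together and the groups were apart. As the list was rewritten after values had been seen, that is a description only. Means of some other lists were apart too, such as that of the plant U-box ubiquitin ligases, at -0.09 to 0.06 with methanol and 0.26 to 0.30 with IXB. SIM, an inhibitor of cyclin-dependent kinases that turns cells from division to endoreduplication, was at 6.07, 6.03, 5.80 and 6.08 with methanol and at 5.44, 5.16, 5.73 and 5.39 with IXB. Its change was -0.57 (SE 0.11, limma adjusted p = 0.0189), with the call lost without methanol replicate 1, 2 or 4 or IXB replicate 2 or 4 (adjusted p up to 0.0616). ATSMC2, a condensin subunit, BUB3.2, of the spindle checkpoint, and AUR3, an Aurora kinase, had changes of -0.32, -0.28 and -0.25 and did not pass, and AUR1 had one of -0.03. Only part of the 71 genes written for this list was measured, so cyclins are nearly absent from it.

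Of 17 genes of DNA repair and recombination 0 rose, 4 fell (23.5%, beside 0.690% of all genes) and 13 did not pass. The median was -0.09. The median level of the list was 4.98, and of all probe sets from 4 to 6 log2 with methanol 1.35% were lower. This list too was rewritten after values had been seen, so the contrast is a description only. Of the 4, 3 are described here. FANCM, a helicase that repairs DNA and limits crossovers, was at 5.06, 5.11, 5.17 and 4.99 with methanol and at 4.23, 4.77, 4.49 and 4.71 with IXB. RCK, a helicase known from meiosis, was at 5.45, 5.43, 5.45 and 5.50 with methanol and at 4.68, 5.02, 5.01 and 5.13 with IXB. In both genes IXB replicate 1 was the lowest array. The changes were -0.53 (SE 0.11, limma adjusted p = 0.0229) and -0.50 (SE 0.09, limma adjusted p = 0.0139). CHR24, an ATPase of the SNF2 type, fell by 0.33. FANCM lost the call without methanol replicate 1 or 2 or IXB replicate 3, and CHR24 without any but IXB replicate 1 (adjusted p up to 0.118) and in the paired fit (adjusted p = 0.0553). The count of 4 was 1 without methanol replicate 1 or IXB replicate 3, and 2 without dim probe sets. FANCM is among the dim ones, with group means of 5.08 with methanol and 4.55 with IXB.

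Among 20 histone and chromatin genes 2 fell (10%, beside 0.690% of all genes), CHR24 again and HTR12, and 18 did not pass. HTR12, the histone H3 variant of centromeres, was at 5.65, 5.25, 5.53 and 5.41 with methanol and at 4.84, 5.04, 5.11 and 5.07 with IXB, a change of -0.45 (SE 0.09, limma adjusted p = 0.0268). It lost the call without methanol replicate 1, 3 or 4 or IXB replicate 1, 2 or 4 (adjusted p up to 0.0790). The bright histone genes HTB4, at 10.8 with methanol, and HTB2, at 9.9, had changes of -0.04 and 0.03 and did not pass. In the paired fit 1 of the 20 fell.

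**Figure D5:**
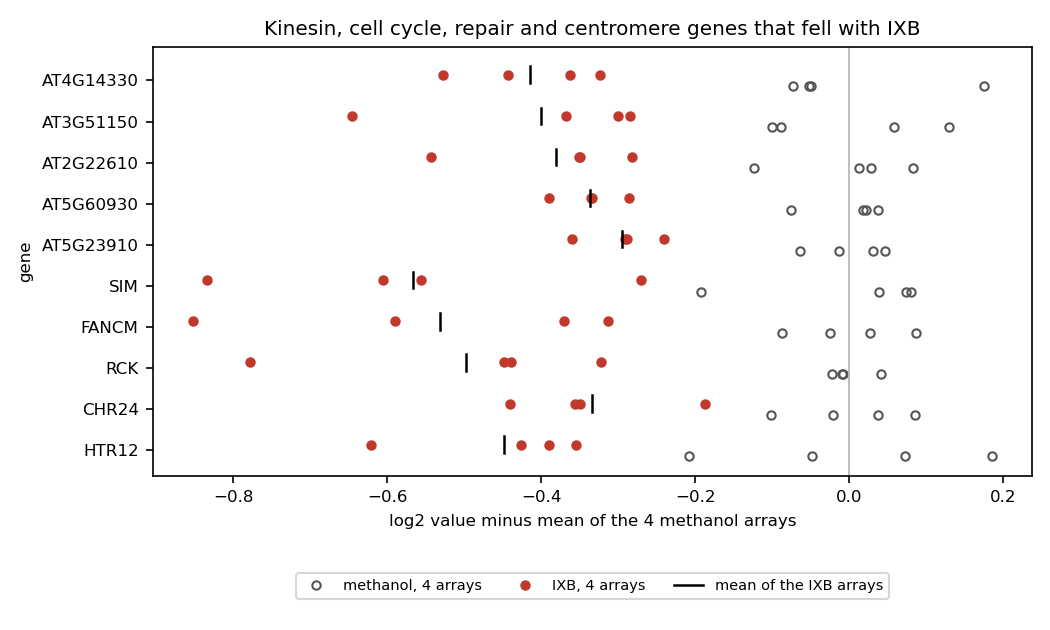
Log2 value minus the mean of the 4 methanol arrays (x axis) for 5 kinesins, SIM, 3 repair genes and HTR12 (y axis), with methanol arrays as open grey points, IXB arrays as red points and the mean of the IXB arrays as a black bar. IXB arrays lie to the left of the methanol arrays for all 10 genes, at means between -0.29 and -0.57. Those among the 25 largest decreases were named only if their groups did not overlap. The share of all probe sets without overlap is not given here.

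The largest decreases outside these families were also under 1 log2. AT2G04850, a cytochrome b561-type protein, was at 5.98, 5.92, 5.96 and 5.87 with methanol and at 5.21, 5.20, 5.20 and 5.37 with IXB, a change of -0.69 (SE 0.07, limma adjusted p = 0.000159). AT5G12970, a C2-domain protein, was at 6.70, 6.51, 6.54 and 6.65 with methanol and at 5.61, 5.92, 6.23 and 6.01 with IXB, a change of -0.66 (SE 0.11, limma adjusted p = 0.00866). AT1G50910 was at 5.94, 5.86, 5.90 and 5.82 with methanol and at 5.41, 5.30, 5.28 and 5.48 with IXB, a change of -0.51 (SE 0.07, limma adjusted p = 0.00206). These 3 genes kept their calls when any 1 array was left out. AT4G15830 fell by 0.49 from a bright 9.18, AT5G37900 by 0.54 from a dim 3.77, and AT3G47270, whose probes may also hybridise to similar genes and which is therefore uncertain, by 0.50. These too kept their calls without any 1 array.

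Others of the 25 largest decreases were less firm. AT1G68400, a leucine-rich repeat receptor kinase, and AT4G33500, a type 2C protein phosphatase, fell by 0.47 and 0.45. AT2G16365, AT3G03170, AT2G16270, AT3G17680, AT3G01980, AT3G10080, AT3G19440, AT1G03830, AT5G49110, AT4G29200 and AT3G26050 fell by amounts from 0.43 to 0.56. Each of these 13 genes lost its call without at least 1 array. It was IXB replicate 3 for AT2G16365 (adjusted p = 0.05001), methanol replicate 1 or IXB replicate 1 for AT2G16270, and methanol replicate 2 or IXB replicate 1, 2 or 4 for AT3G17680 (adjusted p up to 0.0570). It was 5 or more of the 8 arrays for the others, and any of the 8 for AT1G03830, with adjusted p up to 0.123. AT1G68400 and AT3G01980 also lost it with median centring, and AT3G01980 with a further quantile normalization (adjusted p up to 0.0612). NUP1, of the nuclear pore basket, and AT4G36180, another leucine-rich repeat receptor kinase, both named after their values were seen, fell by 0.37 and 0.32. Each lost its call without any array but IXB replicate 4 (adjusted p up to 0.109), and with array weights or median centring. AT4G36180 lost it with paired arrays and a further quantile normalization too (adjusted p up to 0.0696).

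Auxin genes gave 1 call among 18, in cells that were grown with a synthetic auxin in both groups. IAA29, a repressor of auxin signalling, was at 5.86, 5.87, 5.81 and 5.73 with methanol and at 5.53, 5.43, 5.47 and 5.32 with IXB. It fell by 0.38 (SE 0.07, limma adjusted p = 0.0141), and 17 genes did not pass. Of 29 serine carboxypeptidase-like genes scpl42 fell by 0.39 (limma adjusted p = 0.0116) and the dim scpl21 rose by 0.38. The call of scpl21 was lost with median centring (adjusted p = 0.0596) and without any array but methanol replicate 3 (adjusted p up to 0.0970).

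Detoxification and transport gave 0 calls in the lists measured. UDP-glycosyltransferases, which attach sugars to small molecules, were mostly a little above methanol: 43 of 51 differences were above 0 and the median was 0.11, against -0.01 over all genes. None passed in the unpaired fit, where limma had 10 higher and 1 lower at p under 0.05 before adjustment, and 3 rose with paired arrays. No share of all genes is given here beside the counts of signs and of unadjusted p. UGT73B4 had the largest difference, at 6.74, 6.61, 5.30 and 5.94 with methanol and at 7.76, 7.03, 6.10 and 6.27 with IXB. Its groups overlapped and its replicates differed by more than the 0.65 between the group means (limma adjusted p = 0.398). Each IXB array was above the methanol array of the same number, and with paired arrays UGT73B4 rose (limma adjusted p = 0.00962). Of 14 glutathione S-transferases, 19 CYP71B enzymes, 16 SWEET sugar carriers and 11 NPF transporters 0 passed with limma. At an unadjusted p under 0.05, 1 glutathione S-transferase, 0 CYP71B enzymes, 0 SWEET carriers and 1 NPF transporter were higher, and 0 were lower. The members farthest from methanol were GSTU16 (0.21), CYP71B35 (0.16), SWEET10 (0.52) and GTR1 (0.23). SWEET10 was at 6.54 on IXB replicate 1 and at 5.17 to 5.61 on the other IXB arrays.

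Photosynthesis genes did not move as a group. Of 12 nuclear genes 0 passed with limma, with 1 higher and 1 lower at an unadjusted p under 0.05. PRK, phosphoribulokinase of the Calvin cycle, had the largest difference at -0.28 (adjusted p = 0.0601). Of 69 chloroplast transcripts only ycf4, an assembly factor of photosystem I, passed, at 8.44, 8.51, 8.39 and 8.52 with methanol and at 8.81, 8.77, 8.76 and 8.77 with IXB, a change of 0.32 (SE 0.06, limma adjusted p = 0.0226). Omitting methanol replicate 1 or IXB replicate 1, 2 or 4 ended the call (adjusted p up to 0.0688), and in the paired fit 1 of the 69 was lower.

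Neighbouring genes were counted as pairs. Of all genes 1.87% rose and 0.690% fell. These are shares of single genes and not of pairs, and no expected number of pairs was computed. Among 5845 pairs of adjacent protein-coding genes that were both measured, 225 held at least 1 riser, and in 5 pairs both rose. XTH18 and XTH19, EXLA3 and EXLA1, and the acetyltransferases AT2G32020 and AT2G32030 (0.60 and 1.38 log2) are adjacent members of a family, and related sequences can share signal on an array. The probe sets of these 6 genes are not of the types marked as binding related transcripts, but no probe sequence was checked. Shared signal between these neighbours was not tested. In 1 pair both genes fell, and in 0 pairs the neighbours went opposite ways. AT2G32020 lost its call without methanol replicate 4 or IXB replicate 1, 2 or 3 (adjusted p up to 0.0730).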

How the data were processed

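Total RNA was read on Affymetrix ATH1 arrays. The deposited values are log2 intensities from RMA, which per the submitters' processing notes the authors used. That method subtracts background, equalises the distribution of all arrays and summarises the probes of a set. The build and version are not given in the sources used here. The 8 columns of the IXB set were used as deposited, without 64 control probe sets of the 22810.

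Groups were compared by the functions lmFit and eBayes of limma 3.58.1, run in R 4.3.3 with no covariate and two-sided p-values, with p-values adjusted over all 22746 probe sets (Benjamini-Hochberg, threshold 0.05). The code was tested on simulated data. The number of arrays limits the precision, and the median SE of a log2 fold change was 0.0862.

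The platform's annotation lists 14016 of the probe sets, 13513 of exactly 1 gene, of which 13484 matched the TAIR10.1 gene table, used for names and gene order. The brightest probe set of exactly 1 gene represents a gene in a list. Members and gene lists were chosen with earlier results of these data known, and the 44 lists were rewritten after values had been seen, with family loci and the roles of genes named by locus from general knowledge. They are described by counts and medians and were not tested. Named are, among non-overlapping calls of single genes, the 30 largest increases and 25 largest decreases, up to 4 called members of a list with at least 3 measured genes (or the member with the largest change), and genes marked as chosen after their values were seen. Some genes that meet this rule are not reported here.

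Deviations of same-numbered arrays from their group means correlated at 0.102 to 0.147, all over 0.1, so numbers were taken as pairs in an alternative fit with the replicate as a block. No label says what a number marks, and 2 of 4 methanol arrays correlated best with their own number. Methanol replicate 2 correlated best with IXB replicate 1 (0.29) and methanol replicate 3 with IXB replicate 4 (0.16). The correlations thus do not single out the numbers as pairs. Other alternatives were an intensity trend, a robust prior, an ordinary linear model, array weights, a threshold of 0.01, removal of dim probe sets (mean under 5) or of those that can bind related transcripts, quantile normalization again, median centring, the probe set with the largest spread per gene, and leaving out each array. Promoter motifs and protein similarity were not run, and no sequences were used.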

Additional observations from a re-analysis of the deposited data

Results flagged for a closer look

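In groups of 4 arrays, 1 array can lie far from the other 3. The gap to its nearest neighbour, as a share of the group's range, was above Dixon's 95% critical value of 0.829 in 20 of 364 groups examined (10 methanol, 10 IXB). Chance marks about 1 in 20 independent groups. Many genes here were named because their groups did not overlap, and the list means share genes with them. No conclusion is thus drawn from this number.

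Among methanol arrays, replicate 1 was low for XTH19 (share 0.837), PUB23 (0.9039) and scpl21 (0.9782) and high for AT4G14330 (0.9021). Replicate 2 was high for EXLA2 (0.844). Replicate 3 was low for SIM (0.8437), AT1G30260 (0.865), AT5G37540 (0.9421) and the mean of autophagy genes (0.845). Replicate 4 was high for the mean of small heat shock proteins (0.8486).

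Among IXB arrays, replicate 1 was high for EXLA3 (0.8528). Replicate 2 was low for AT5G47070 (0.8956) and high for the mean of bZIP factors (0.8696) and of the Hop, Fes1, ERDJ, FKBP and chaperonin genes (0.8554). Replicate 3 was low for AT4G33500 (0.9141) and high for AT5G39670 (0.8847) and the mean of calmodulin-like and EF-hand genes (0.8962). Replicate 4 was low for RALFL28 (0.8619) and high for AT2G04850 (0.9436) and PRA1.B6 (0.9296).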

How the results depend on the processing

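The counts of 501 higher and 184 lower probe sets were 625 and 189 with the replicate block (same-numbered arrays paired), of which 465 and 138 were among the main calls. The block changed the call of 5 of the 125 named genes past the threshold (AT4G14360, ELC, CHR24, AT5G23910 and AT4G36180), and it added UGT73B4 and AT1G30260. It changed no other named call. An ordinary linear model gave 164 and 48, and a threshold of 0.01 gave 226 and 16. The count of lower probe sets was 279 with array weights and 307 without dim probe sets, and leaving out each array in turn gave 319 to 487 higher and 54 to 152 lower. The lowest counts came without methanol replicate 1 for both directions (319 and 54), and without IXB replicate 2 for higher ones (319). Fits with fewer arrays also have less power. Calls of named genes never changed sign under the 18 alternatives, and 76 of 125 kept the threshold in all 8 fits that leave out an array. Without IXB replicate 1, 41 of the named calls were lost. The ordinary linear model lost 79 of the named calls and the threshold of 0.01 lost 61. Losses given gene by gene above leave out these settings. The lists hold only genes with a probe set of their own, many are dim, and 4 arrays a group limit what differences can be seen.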
